A study of Macaca fascicularis with 86 samples.

Results

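MESP1, MESP2, TBX6 and MSGN1 are 4 transcription factor genes of nascent mesoderm, the tissue that leaves the primitive streak during gastrulation. They were taken by symbol from a table of 17023 genes, which has a row for each of the 4. The table covers 86 regions cut by laser from cryosections of gastrulating crab-eating macaque (Macaca fascicularis) embryos, each region of 5 to 50 cells, with polyadenylated RNA sequenced by Geo-seq. The groups were 1 embryo at stage E20, with 36 regions from 7 sections, and 2 embryos at E18. E18 embryo 1 gave 15 regions from 4 sections and E18 embryo 2 gave 35 regions from 6 sections. The labels give no treatment, genotype or germ layer, number the sections of each embryo and the sectors of each section, and do not say at which end either numbering starts. Each value is a TPM as deposited, a share of the reads scaled for gene length. The columns summed to between 495547 and 777987, so a TPM of 1 is not the same share of the column in each region. TPM hold no counts, sequencing depth is therefore unknown, and an exact 0 is given only as listed at 0.

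As background, MESP1 and MESP2 are paralogous basic helix-loop-helix factors encoded close to each other. In the mouse, Mesp1 marks the earliest cardiac and cranial mesoderm as it leaves the streak, and Mesp2 is best known for setting the borders of somites. TBX6 is a T-box factor that, in the mouse, keeps paraxial mesoderm from taking a neural fate. MSGN1 is a basic helix-loop-helix factor that in the mouse drives differentiation of presomitic mesoderm, downstream of WNT signalling and the T-box factors. A region of several cells can hold more than 1 cell type, so factors found in the same region need not be in the same cell, and fewer cells of a type cannot be told apart from less RNA per cell. Reads shared by MESP1 and MESP2 could have been assigned to either, and how the authors' counting treated them is not given in the sources used here. In the RefSeq annotation of another assembly (T2T-MFA8v1.1) both lie on chromosome 7 with 1 other gene listed between them, while TBX6 is on chromosome 20 and MSGN1 on chromosome 13.

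The E20 sections were not alike in their tissue markers. Mean log2(TPM + 1) over 10 yolk sac and hypoblast endoderm genes ran from 2.32 to 11.4 in the 28 regions of E20 sections 1 to 5, against 0.41 to 1.26 in the 8 regions of E20 sections 6 and 7 and 0.35 to 6.26 in the 50 E18 regions. Over 8 epiblast genes the level was 0.26 to 1.87 in E20 sections 1 to 5, 2.59 to 6.29 in sections 6 and 7 and 2.11 to 6.96 at E18. Over 17 primitive streak genes it was 0.075 to 1.69, 2.01 to 6.22 and 1.61 to 6.69 in the same order, with 5 of the 17 listed at 0 throughout E20 sections 1 to 5. The number of genes that reached 1 TPM in a region was 6194 to 10950 per region in the E20 embryo, 7815 to 11516 in E18 embryo 1 and 11091 to 13958 in E18 embryo 2.

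MESP1 reached the highest single value of the 4 factors. In the 36 E20 regions it ran from 0 to 98.8 TPM with a median of 0, against 0 to 34.7 TPM with a median of 0 in the 15 regions of E18 embryo 1 and 0 to 139 TPM with a median of 4.61 TPM in the 35 regions of E18 embryo 2. It reached a TPM of 1 in 2 E20 regions, 4 regions of E18 embryo 1 and 25 regions of E18 embryo 2. The ranges of the 3 embryos overlapped from 0 upwards. The 5 highest regions held 56.3% of its TPM summed over all 86, and the 10 highest held 77.4%.

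MESP2 was found in the most regions and had the lowest peak. It ran from 0 to 14.4 TPM (median 0) in the E20 embryo, 0 to 50.9 TPM (median 3.31) in E18 embryo 1 and 0 to 45.2 TPM (median 3.28) in E18 embryo 2. It reached a TPM of 1 in 6 E20 regions, 11 regions of E18 embryo 1 and 27 regions of E18 embryo 2, 44 regions in all. Its 5 highest regions held 43.9% of its summed TPM. The medians of the E18 embryos differed by far less than the spread between their regions.

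TBX6 was found in a few more regions than MESP1, 35 against 31, with a lower maximum. It ran from 0 to 35.5 TPM (median 0) in the E20 embryo, 0 to 13.98 TPM (median 0.128) in E18 embryo 1 and 0 to 68.2 TPM (median 2.48) in E18 embryo 2. It reached a TPM of 1 in 2 E20 regions, 5 regions of E18 embryo 1 and 28 regions of E18 embryo 2. The 10 highest regions held 78.5% of its summed TPM.

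MSGN1 was the most restricted, at a TPM of 1 or more in 21 of 86 regions, of which 16 were in E18 embryo 2. It ran from 0 to 26.4 TPM in the E20 embryo (3 regions at a TPM of 1), 0 to 1.96 TPM in E18 embryo 1 (2 regions) and 0 to 95.2 TPM in E18 embryo 2, with a median of 0 in each. The 10 highest regions held 84.3% of its summed TPM. The E18 embryos overlapped at 0, and no region of E18 embryo 1 reached 2 TPM.

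**Figure D1:**
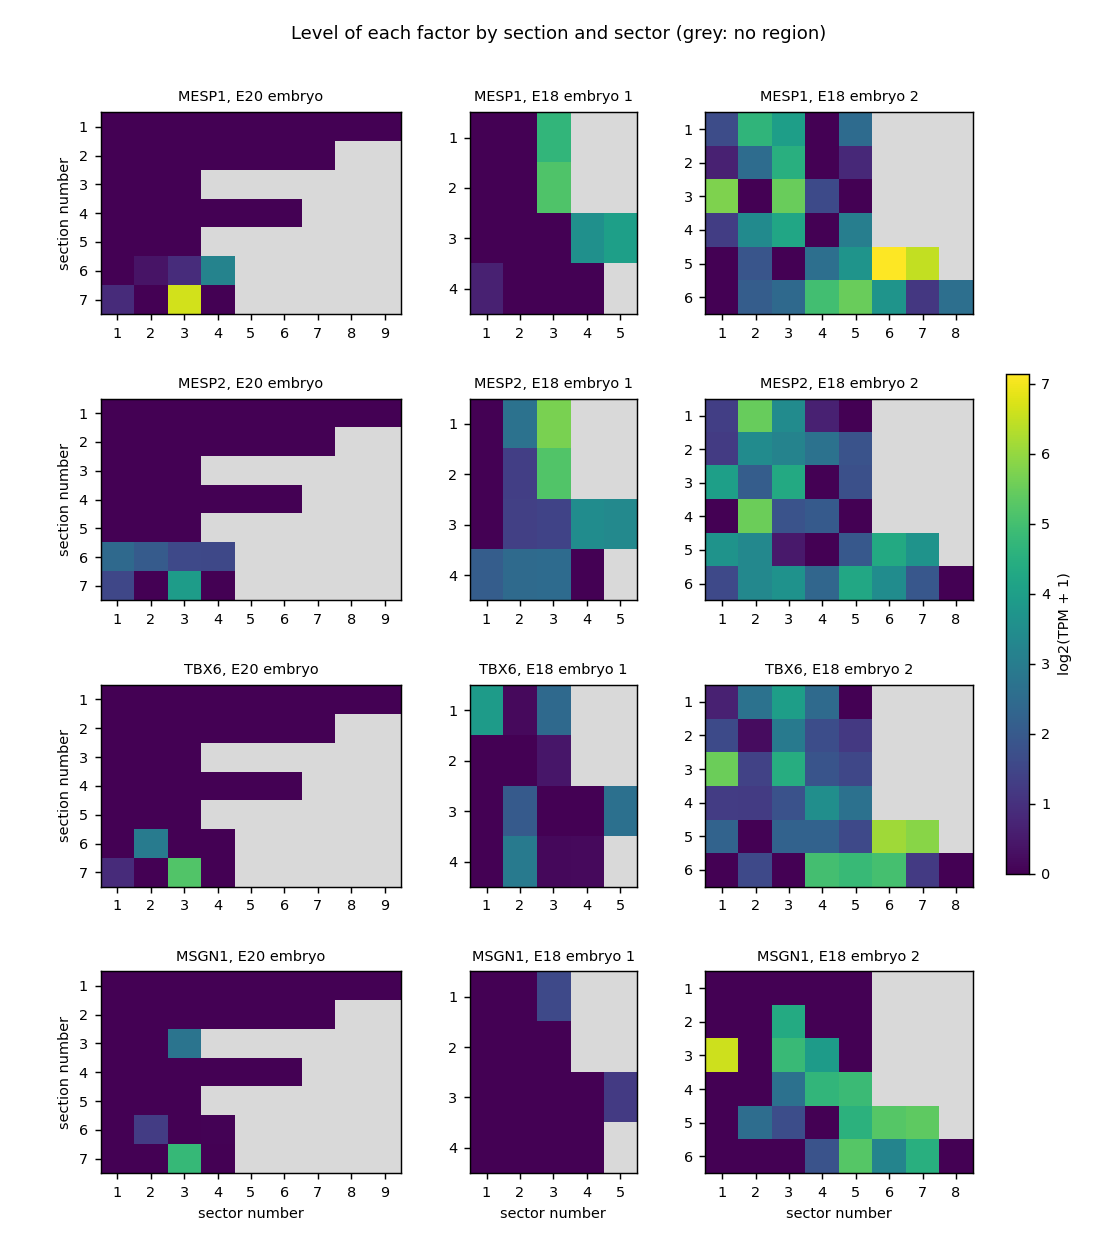
Level of each factor as log2(TPM + 1), from 0 (dark) upwards, in every region laid out by section number (down) and sector number (across) for the E20 embryo, E18 embryo 1 and E18 embryo 2. E20 sections 1 to 5 are at 0 but for 1 MSGN1 region of 5.71 TPM, and E20 section 7 sector 3 and E18 embryo 2 section 5 sectors 6 and 7 are high for all 4 factors.

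Within the E20 embryo, each factor had its highest value in the same region. MESP1, MESP2 and TBX6 were listed at 0 in 28 of 28 regions of sections 1 to 5, the regions with high yolk sac endoderm markers. MSGN1 was listed above 0 in 1 of these, section 3 sector 3, at 5.71 TPM, a region with 1335 TPM of the mesenchymal collagen COL3A1 and no other factor of the 4. In sections 6 and 7, sector 3 of section 7 had 98.8 TPM of MESP1, 14.4 TPM of MESP2, 35.5 TPM of TBX6 and 26.4 TPM of MSGN1. Those values ranked 2, 9, 4 and 7 among the 86 regions. The same region had 63.9 TPM of TBXT, a T-box factor gene of the streak and nascent mesoderm, 505 TPM of another T-box gene, EOMES, and 933 TPM of the homeobox gene MIXL1. The other 3 sectors of section 7 had at most 0.852 TPM of MESP1, 1.88 TPM of MESP2, 0.824 TPM of TBX6 and 0 TPM of MSGN1.

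In section 6 of the E20 embryo, MESP1 peaked in another sector than TBX6 and MSGN1. MESP2 stood at 4.46, 3.12, 1.98 and 1.91 TPM in sectors 1 to 4, so it was above 1 in each. MESP1 was at 8.09 TPM in sector 4 and below 1 in the other sectors. TBX6 was at 6.82 TPM and MSGN1 at 1.42 TPM in sector 2, the sector of that section with the most TBXT (19.8 TPM) and MIXL1 (333 TPM), and MESP1 was at 0.302 TPM there. Sector 4, the MESP1 region, instead had 1032 TPM of COL3A1 and 455 TPM of the amnion marker GABRP.

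E18 embryo 1 had its highest MESP1 and MESP2 values in sections 1 and 2. Section 1 sector 3 had 24.99 TPM of MESP1 and 50.9 TPM of MESP2, with 4.41 TPM of TBX6 and 1.96 TPM of MSGN1. Section 2 sector 3 had 34.7 TPM of MESP1 and 35.7 TPM of MESP2, with 0.353 TPM of TBX6 and MSGN1 listed at 0. TBXT was at 1.25 and 2.11 TPM in these regions, while EOMES was at 69.3 and 109 TPM and the Notch ligand DLL3 at 64.8 and 83.0 TPM. Section 3 sectors 4 and 5 followed, with 10.9 and 15.3 TPM of MESP1 and 10.02 and 9.32 TPM of MESP2.

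The section of E18 embryo 1 with the most TBXT was the one with the least MESP1. In section 4, sector 1 had 30.3 TPM of TBXT and 230 TPM of MIXL1 beside 0.582 TPM of MESP1, and sector 2 had 50.4 TPM of TBXT and 550 TPM of MIXL1 with MESP1 listed at 0. TBX6 was at 6.73 TPM in that sector 2 and listed at 0 in sector 1, and MSGN1 was listed at 0 in 4 of 4 sectors of the section. The highest TBX6 of this embryo, 13.98 TPM, was in section 1 sector 1, where the other 3 factors and TBXT were listed at 0 and COL3A1 was at 770 TPM.

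E18 embryo 2 held the highest MESP1, TBX6 and MSGN1 values. Section 5 sector 6 had 139 TPM of MESP1, 19.02 TPM of MESP2, 68.2 TPM of TBX6 and 36.9 TPM of MSGN1, and its neighbour sector 7 had 88.2, 11.7, 57.3 and 40.3 TPM of the same factors. These sectors also had 173 and 221 TPM of TBXT, 450 and 699 TPM of MIXL1 and 38.4 and 24.5 TPM of SNAI1, a repressor of E-cadherin in epithelial to mesenchymal transition. Section 3 sector 1 had 52.7 TPM of MESP1, 15.4 TPM of MESP2, 45.0 TPM of TBX6 and 95.2 TPM of MSGN1, the highest MSGN1 value of all regions. Sector 3 of that section had 44.3, 19.04, 20.7 and 27.3 TPM, and between them sector 2 had MESP1 and MSGN1 listed at 0 and 136 TPM of the epiblast gene SOX2. In section 6, sectors 4, 5 and 6 had 30.1, 44.3 and 11.99 TPM of MESP1 and 31.01, 27.2 and 31.8 TPM of TBX6.

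The first section of E18 embryo 2 resembled section 2 of E18 embryo 1 in that MESP1 and MESP2 were present without MSGN1. TBX6 differed, with section means of 5.12 TPM and 0.118 TPM in the same order. Sector 2 of section 1 had 24.4 TPM of MESP1, 43.7 TPM of MESP2 and 5.45 TPM of TBX6, and sector 3 had 14.98, 9.88 and 15.05 TPM of the same factors. MSGN1 was listed at 0 in 5 of 5 sectors of that section, and TBXT was listed at 0 in sector 2 and at 1.75 TPM in sector 3. EOMES was at 134 and 109 TPM in the same sectors.

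**Figure D2:**
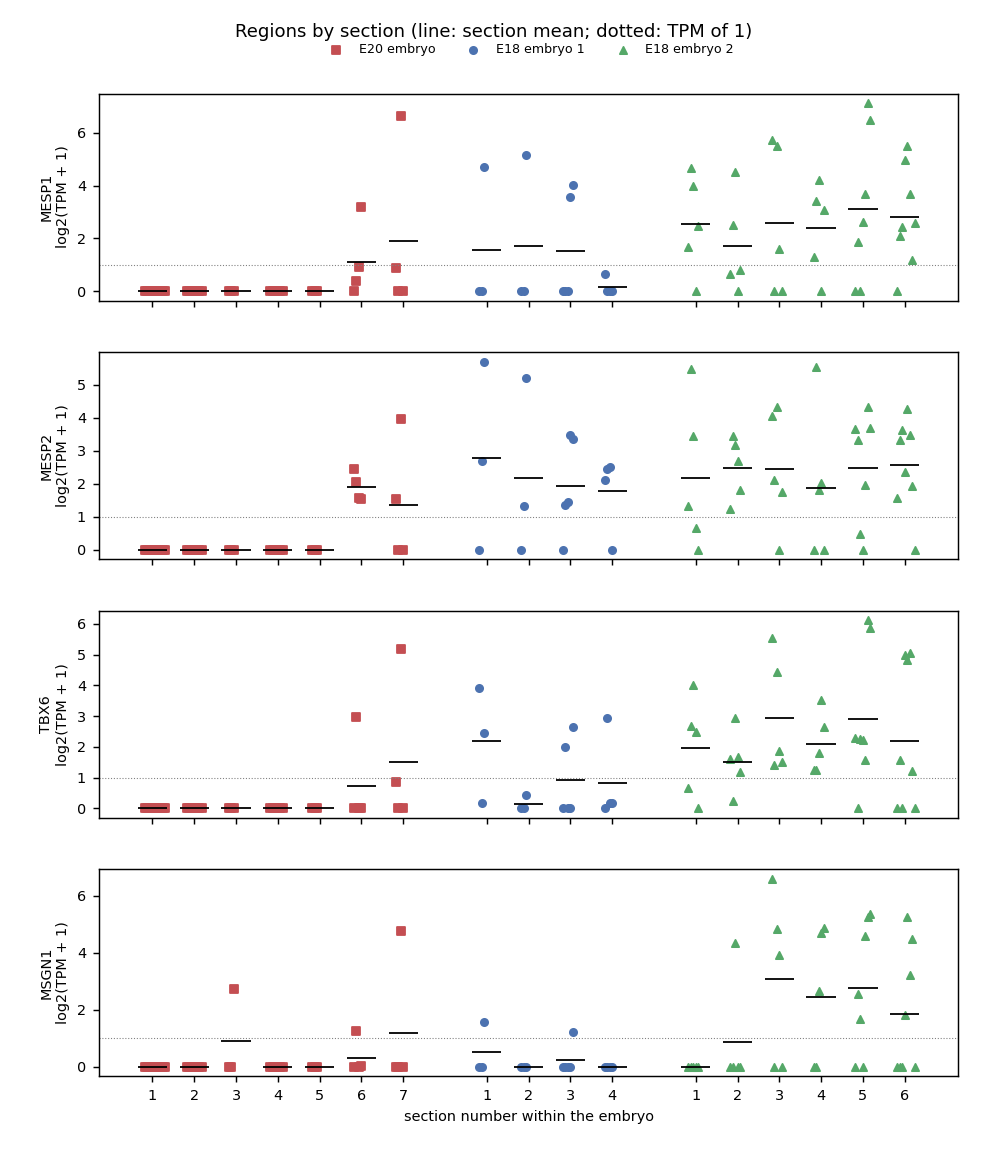
Level of each factor as log2(TPM + 1) in every region by section number, with E20 regions as squares, E18 embryo 1 as circles and E18 embryo 2 as triangles, offset sideways by sector. Bars are section means and the dotted line is a TPM of 1. Regions of a section spread widely at E18, MESP2 and TBX6 are above 1 TPM in most regions of E18 embryo 2, and in E20 section 7 sector 3 is the highest region for each factor.

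By section mean, MESP1 was highest in section 5 of E18 embryo 2 (35.3 TPM), followed by E20 section 7 (24.9 TPM) and E18 embryo 2 section 3 (19.8 TPM). TBX6 was highest in E18 embryo 2 sections 5 (19.8 TPM), 3 (14.4 TPM) and 6 (11.7 TPM). MSGN1 was highest in sections 3 (27.3 TPM), 5 (15.3 TPM) and 4 (11.6 TPM) of that embryo. MESP2 had another order, with sections 1 (18.8 TPM) and 2 (12.4 TPM) of E18 embryo 1 first and section 1 of E18 embryo 2 (11.1 TPM) next. Nearly all neighbours in these orders did not differ beyond the spread of their regions. The ranges of neighbouring sections overlapped in 16 of 16 pairs for each factor but MESP2, and in 15 of 16 for MESP2. The order held 17 sections. Sections were paired after sorting by their mean, which favours overlap and small differences. For each factor the pairs also include some in which neither section had any TPM of the factor, and these were counted as overlapping. The counts are therefore no test of whether sections differ.

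At a TPM of at least 1, all 4 factors were found together in 14 regions, 1 of 36 in the E20 embryo, 2 of 15 in E18 embryo 1 and 11 of 35 in E18 embryo 2. None of the 4 was found in 32 regions, 29 of them at E20 and 3 in E18 embryo 1. Every region of E18 embryo 2 had at least 1. Of the remaining regions, 14 had 1 factor, 17 had 2 and 9 had 3. MESP2 alone was the most frequent single factor, in 9 regions, and MESP2 with TBX6 the most frequent pair, in 8.

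**Figure D3:**
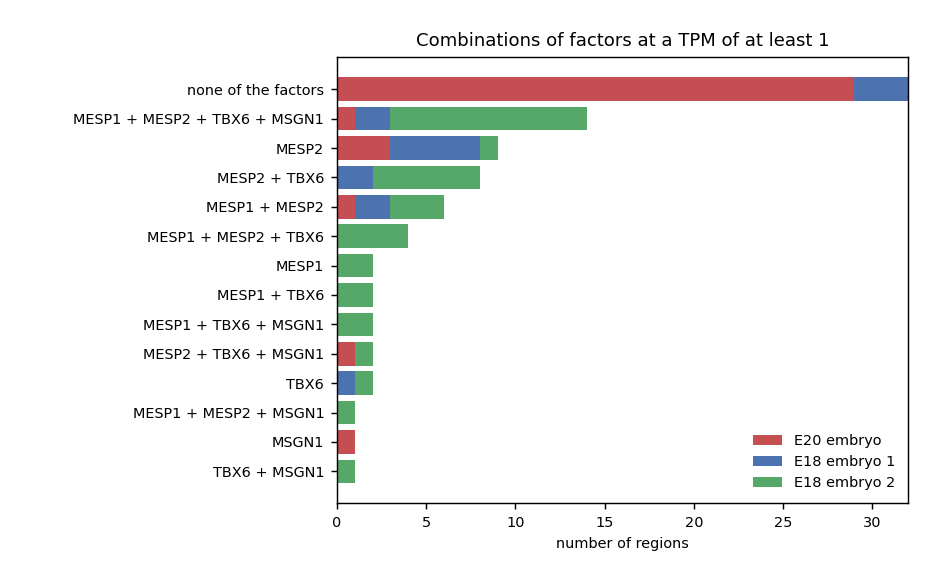
Number of regions (horizontal axis) with each combination of factors at a TPM of at least 1, coloured by embryo. The 32 regions with none are mostly E20, and the combination of all 4 is next with 14 regions, 11 of them in E18 embryo 2.

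At a TPM of at least 1, TBX6 held the largest share of the MSGN1 regions. Both were present in 19 regions, which is 90.5% of the MSGN1 regions and 54.3% of the TBX6 regions. MSGN1 shared 17 regions with MESP1 (81.0% of MSGN1 regions, 54.8% of MESP1 regions) and 17 with MESP2 (81.0% and 38.6%). MESP1 and MESP2 shared 25 regions, 80.6% of the MESP1 regions and 56.8% of the MESP2 regions. MESP1 shared 22 with TBX6, and MESP2 shared 28 with TBX6. The order of these shares depended on the threshold. Above 0 TPM, each of the other 3 factors held 86.4% of 22 MSGN1 regions, and at 5 TPM MESP1 held 11 and TBX6 10 of 15. Overlaps are larger where a factor is found in more regions, so these shares carry no test.

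Among the 10 highest regions of each factor, 6 were common to all 4. They were E20 section 7 sector 3 and, in E18 embryo 2, section 3 sectors 1 and 3, section 5 sectors 6 and 7 and section 6 sector 5. MESP1 and MESP2 shared 9 of their 10 highest regions and MESP1 and TBX6 shared 7. The other 4 pairs shared 6 each.

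The 14 regions with all 4 factors also carried streak genes at widely varying levels. TBXT ran from 1.25 to 221 TPM (median 42.3), EOMES from 3.26 to 562 TPM (median 346), MIXL1 from 4.57 to 933 TPM (median 166) and DLL3 from 8.63 to 158 TPM (median 69.6). Over all regions, EOMES and MIXL1 were each at a TPM of at least 1 in 31 of 31 MESP1 regions, against 57 and 55 of the 86. The 86 include the 28 regions of E20 sections 1 to 5, all with MESP1 listed at 0. EOMES and MIXL1 reached 1 TPM in 3 and 4 of these 28. Elsewhere they were nearly general, in 46 and 43 of 50 E18 regions and 8 of 8 regions of E20 sections 6 and 7. TBXT was at that level in 27 of 31 MESP1 regions and 19 of 21 MSGN1 regions, against 36 of 86. It was so in 32 of 50 E18 regions and 4 of 8 regions of E20 sections 6 and 7. For MESP2, found more widely, TBXT was present in 29 of 44 regions and EOMES in 43 of 44.

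In some regions of E18 embryo 2 with high COL3A1, but not in all, MSGN1 was well above MESP1. Section 4 sector 4 had 24.8 TPM of MSGN1 and 10.6 TPM of TBX6 with MESP1 listed at 0, and 518 TPM of COL3A1. Section 4 sector 5 had 28.03 TPM of MSGN1 against 7.33 TPM of MESP1 with MESP2 listed at 0, and 1177 TPM of COL3A1. In section 6 sector 7, MSGN1 was at 21.5 TPM and MESP1 at 1.25 TPM, with 198 TPM of COL3A1 and 18.9 TPM of SNAI1. Section 3 sector 4 had 14.1 TPM of MSGN1 and 2.02 TPM of MESP1, with 352 TPM of COL3A1. Section 5 sector 5 had 22.998 TPM of MSGN1 and 11.9 TPM of MESP1, with 522 TPM of COL3A1. MSGN1 was also found without MESP1 where COL3A1 was low, at 2.22 TPM in section 5 sector 3, which had 1.25 TPM of COL3A1. By contrast, section 1 sector 4 of this embryo had 3631 TPM of COL3A1 with MSGN1 and MESP1 listed at 0. Its neighbour sector 5 had 320 TPM of COL3A1 and 4.61 TPM of MESP1 with MSGN1 listed at 0. Within E18 embryo 2, Pearson's r of log2(TPM + 1) between MSGN1 and COL3A1 was -0.036. COL3A1 reached 100 TPM in 6 of 21 MSGN1 regions, 8 of 31 MESP1 regions, 11 of 35 TBX6 regions and 8 of 44 MESP2 regions, against 43 of all 86. The 86 include the 28 regions of E20 sections 1 to 5, with MESP1, MESP2 and TBX6 listed at 0. Median COL3A1 was 633 TPM in these 28, against 3.62 TPM at E18. The share over all 86 is therefore no base for the E18 regions. The part of other mesenchymal cells in these regions was not tested.

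MESP1 reached 1 TPM without MSGN1 doing so in 14 regions. Among those with MSGN1 listed at 0, high MESP2 was found in section 2 sector 3 of E18 embryo 1 and section 1 sector 2 of E18 embryo 2, given above, and section 4 sector 2 of E18 embryo 2. That last region had 45.2 TPM of MESP2 and 9.68 TPM of MESP1, with 1.38 TPM of TBX6 and 2.42 TPM of TBXT. It also had 521 TPM of the apelin receptor gene APLNR, and the others had 230 and 405 TPM. Regions with high MSGN1 varied widely in APLNR, with 556 TPM in section 3 sector 1, 54.9 TPM in section 4 sector 5 and 559 TPM in section 6 sector 7 of E18 embryo 2, and 126 TPM in E20 section 7 sector 3.

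Between the paralogs, MESP2 exceeded MESP1 in 4 of 36 E20 regions, 9 of 15 regions of E18 embryo 1 and 17 of 35 regions of E18 embryo 2. MESP1 exceeded MESP2 in 2, 2 and 18 regions of the same embryos. The 4 regions with the most MESP1 had 139, 98.8, 88.2 and 52.7 TPM of it beside 19.02, 14.4, 11.7 and 15.4 TPM of MESP2. The 4 with the most MESP2, at 50.9, 45.2, 43.7 and 35.7 TPM, had 24.99, 9.68, 24.4 and 34.7 TPM of MESP1. Regions chosen for a high value of a paralog favour that paralog, so these values are a description.

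**Figure D4:**
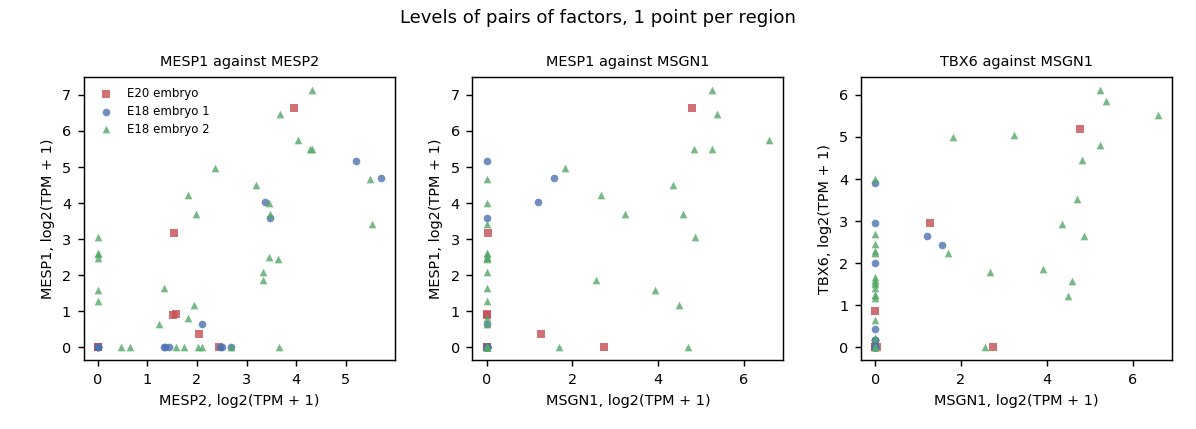
Levels as log2(TPM + 1) of MESP1 against MESP2, MESP1 against MSGN1 and TBX6 against MSGN1, with 1 point per region and E20 as squares, E18 embryo 1 as circles and E18 embryo 2 as triangles. The column of points at an MSGN1 of 0 holds regions with MESP1 of up to 34.7 TPM and TBX6 of up to 15.05 TPM.

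After subtracting each embryo's mean log2(TPM + 1), Pearson's r over the 86 regions was 0.65 for MESP1 with MESP2, 0.64 for TBX6 with MSGN1, 0.60 for MESP1 with TBX6 and 0.57 for MESP1 with MSGN1. It was 0.42 for MESP2 with TBX6 and 0.28 for MESP2 with MSGN1. Spearman's rho was lower in each pair, from 0.22 for MESP2 with MSGN1 to 0.55 for MESP1 with MESP2. The points share embryos, sections and many zeros, and these values are descriptions with no test. Within embryos, MESP1 and MESP2 had r of 0.79 in the E20 embryo, 0.84 in E18 embryo 1 and 0.52 in E18 embryo 2. MESP1 and TBX6 had 0.79, 0.16 and 0.67 in the same embryos. In the E20 embryo, MESP1 and TBX6 were both listed at 0 in the 28 regions of sections 1 to 5.

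The comparison of stages asked whether the factors differed between the E20 embryo and the E18 embryos. As embryo means of log2(TPM + 1), MESP1 was at 0.33 in the E20 embryo, against 1.21 and 2.58 in E18 embryos 1 and 2, a difference of -1.56 ± 0.82 (SE; limma on 3 embryo means, Benjamini-Hochberg adjusted p = 0.246). MESP2 was at 0.36 in the E20 embryo, against 2.11 and 2.37, a difference of -1.87 ± 0.81 (adjusted p = 0.122). TBX6 was at 0.25, against 0.99 and 2.30, a difference of -1.40 ± 0.83 (adjusted p = 0.326). MSGN1 was at 0.25, against 0.18 and 1.89, a difference of -0.79 ± 0.82 (adjusted p = 0.675), so here the E20 embryo lay between the E18 embryos.

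Of the 4 factors 0 passed an adjusted p of 0.05 with limma (1, MESP2, had an unadjusted p under 0.05), against 11.4% of 15216 genes tested, 8.75% in the lower direction. These shares are at an adjusted p, so the unadjusted p of MESP2 is not to be set against them. At an unadjusted p under 0.05 (limma) the share of all genes was 22.2%. The median difference over all genes was -0.44. The E18 embryos differed from each other, embryo 2 minus embryo 1, by 1.37 for MESP1, 1.31 for TBX6 and 1.70 for MSGN1, and by 0.26 for MESP2. With only E20 sections 6 and 7 on the E20 side, the differences were -0.39, -0.60, -0.52 and -0.27 for MESP1, MESP2, TBX6 and MSGN1 (adjusted p = 0.9999 for each). Of 10 yolk sac endoderm markers 8 were higher at E20 and 7 fell along sections, against 2.64% and 1.89% of all genes. Their part in the stage and section values was not tested. The E20 side is 1 embryo, so these values hold nothing on variation among E20 embryos.

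Along the section numbers, a common slope within embryos was fitted to log2(TPM + 1), from 0 at an embryo's first to 1 at its last section. It was 0.68 ± 0.53 for MESP1, 0.55 ± 0.42 for MESP2, 0.53 ± 0.43 for TBX6 and 0.96 ± 0.47 for MSGN1 (SE, 86 regions). Adjusted p was 0.448, 0.442, 0.468 and 0.178 in the same order with limma, whose fit treats regions of an embryo as independent beyond their block. None of the 4 passed (1, MSGN1, had an unadjusted p under 0.05), against 10.7% of 15216 genes, 8.81% with a rising slope. At an unadjusted p under 0.05 (limma) the share of all genes was 25.1%. Of 17 streak factors and signals fitted in the same way, 11 rose along the sections and 0 fell, with a list median of 2.10 against 0.11 over all genes, TBXT by 2.46 ± 0.51 and MIXL1 by 4.32 ± 0.66. With the E20 embryo left out, 2 of the 17 passed (limma; 9 of 15216 genes did), with a median of 2.04. The slopes of MESP1 and TBX6 were then 0.11 each, of MESP2 -0.13 and of MSGN1 1.11.

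**Figure D5:**
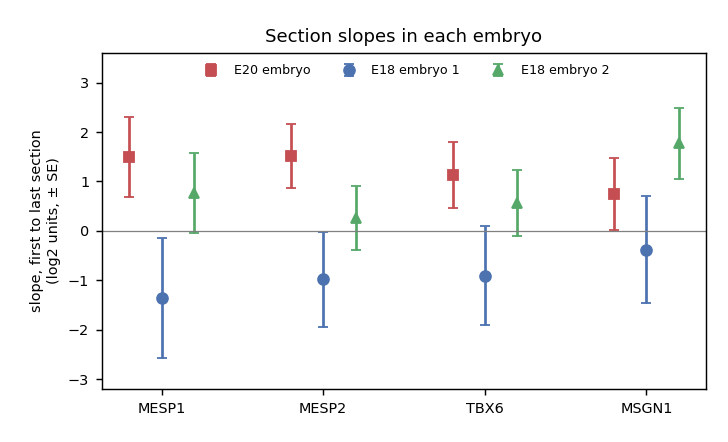
Slope of log2(TPM + 1) from the first to the last section (vertical axis, ± SE) of each factor in the E20 embryo, E18 embryo 1 and E18 embryo 2. Slopes are below 0 in E18 embryo 1 and above 0 in the other embryos for each factor, with error bars that overlap 0 or one another in many cases and no difference past the threshold.

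Slopes by embryo ran in unlike directions. For MESP1 they were 1.495 ± 0.81 in the E20 embryo, -1.36 ± 1.22 in E18 embryo 1 and 0.77 ± 0.81 in E18 embryo 2, and for MESP2 1.52 ± 0.65, -0.98 ± 0.97 and 0.26 ± 0.65. TBX6 had 1.14 ± 0.67, -0.90 ± 0.997 and 0.57 ± 0.67, and MSGN1 0.75 ± 0.72, -0.38 ± 1.08 and 1.77 ± 0.72. A moderated F test of the difference between embryos (limma) gave adjusted p = 0.410, 0.302, 0.519 and 0.521 for MESP1, MESP2, TBX6 and MSGN1. So 0 of 4 passed (0 at an unadjusted p under 0.05), against 10.1% of 15216 genes (23.4% at an unadjusted p under 0.05).

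Along the sector numbers within sections, the slope was 1.20 ± 0.52 for MESP1, 0.097 ± 0.43 for MESP2, 0.34 ± 0.43 for TBX6 and 1.04 ± 0.44 for MSGN1 (SE, 86 regions). Adjusted p with limma was 0.202, 0.942, 0.757 and 0.189. Again 0 of 4 passed (MESP1 and MSGN1 had an unadjusted p under 0.05), against 3.24% of 15216 genes, 2.48% with a rising and 0.762% with a falling slope. The share of all genes at an unadjusted p under 0.05 (limma) was 17.1%. The sector with the most MESP1 was sector 3 in sections 1 and 2 of E18 embryo 1, sector 5 in its section 3, and sectors 2, 3, 1, 3, 6 and 5 in sections 1 to 6 of E18 embryo 2. In E18 embryo 1 each of these was the last sector of its section, while in E18 embryo 2 the place within the section varied. A high region in the middle of a section adds little to a straight slope, and what this did to the fit was not tested.

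Genes that act beside these factors were taken from lists. Of 20 genes of paraxial mesoderm and segmentation, 19 were in the table and 14 passed the filter on low values (1 TPM or more in 10 or more regions). Of the 14, 2 were lower at E20 and 0 higher, DLL3 by -2.97 ± 0.61 and the retinoic acid degrading enzyme CYP26A1 by -3.48 ± 0.45, with a list median of -0.67 against -0.44 over all genes, of which 8.75% were lower. With E20 sections 6 and 7 alone 0 of the 14 passed (limma; 6 genes of 15216 did). Along sections 4 rose and 0 fell, CYP26A1 by 2.98 ± 0.67, DLL3 by 1.44 ± 0.48, the Notch-modifying enzyme gene LFNG by 1.45 ± 0.28 and FOXC1 by 1.15 ± 0.27, with a list median of 0.73, against 8.81% of all genes rising. None of these 4 calls was made without the E20 embryo, where 9 of 15216 genes passed (limma). Along sectors the Notch target HEY1 rose by 2.67 ± 0.60 and 0 fell, with a list median of 0.014, against 2.48% of all genes rising. HEY1 is also on the list of amnion and surface ectoderm markers. Of those, 2 of 9 tested rose along sectors, with a median of 1.23, and their part was not tested. With E18 embryo 2 left out, 0 genes of the whole table passed along sectors (limma; 1116 at an unadjusted p under 0.05).

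Segmentation genes of the list varied widely in their maximum. HES7, an oscillating repressor of presomitic mesoderm, reached a TPM of 1 in 1 E20 region and 8 regions of E18 embryo 2, with a maximum of 9.03 TPM in section 5 sector 6 of E18 embryo 2, the region with the most MESP1 and TBX6. In E20 section 7 sector 3 it was at 3.93 TPM. RIPPLY2, a target of Mesp2 in the mouse, reached at most 1.99 TPM, and it was listed at 0 in both of those regions. The somite genes MEOX1, TBX18 and TCF15 reached at most 5.46, 3.44 and 8.63 TPM. DLL3 reached 158 TPM and was at 153 TPM in E20 section 7 sector 3. LFNG reached 33.6 TPM and was at 1 TPM or more in 44 of 86 regions. DLL1, the other Notch ligand of the list, had its maximum of 72.2 TPM in E18 embryo 1.

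Of 20 genes listed as MESP1 targets or early cardiac mesoderm, 20 were tested. At E20 KDR, a VEGF receptor gene, was higher by 1.73 ± 0.47 and APLNR differed by -2.35 ± 0.45, with a list median of -0.73. These are 1 of 20 each, against 2.64% of all genes higher and 8.75% lower. Along sections 3 rose, the WNT antagonist DKK1 by 2.25 ± 0.59, GATA6 by 1.39 ± 0.42 and SNAI1 by 1.12 ± 0.35, and 3 fell, with a list median of 0.092, against 8.81% of all genes rising and 1.89% falling. The 3 that fell had slopes of -2.11 ± 0.48 (KDR), -1.56 ± 0.47 (ZEB2) and -0.72 ± 0.20 (TBX5). None of these calls was made with E20 sections 6 and 7 alone or, along sections, without the E20 embryo. Along sectors 4 rose, HAND2 by 2.64 ± 0.71, ZEB2 by 1.93 ± 0.43, SNAI2 by 1.91 ± 0.52 and KDR by 1.36 ± 0.40, against 2.48% of all genes. Of 10 extraembryonic mesenchyme markers 7 rose along sectors too (their part was not tested). With the E20 embryo left out, 2 of the 20 genes passed along sectors, and with E18 embryo 2 left out, 0 did. Of the 10 posterior progenitor genes 9 were tested. At E20 NKX1-2 and WNT5B were lower, against 8.75% of all genes, with a list median of -1.42 against -0.44 over all genes. Along sections HES1 rose, 1 of 9 against 8.81% of all genes, with a list median of 0.53 against 0.11. With E20 sections 6 and 7 alone 0 of the 9 differed between stages, and with the E20 embryo left out, 0 rose along sections (limma). In these fits few genes of the whole table passed, as given above.

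Ranked by r with each factor over the 86 embryo-centred regions, among genes averaging 5 TPM or more, the nearest genes differed between factors. For MESP1 they were NKD1, a feedback inhibitor of WNT signalling (r of 0.78), the peptide hormone gene CCK (0.75), the homeobox gene EVX1 (0.74), DLL3 (0.71) and NKX1-2 (0.69). For MESP2 they were DLL3 (0.78), SYNDIG1L (0.71), VRTN (0.67), the LIM homeobox gene LHX1 (0.67) and PREX1 (0.66). For TBX6 they were the ligand gene WNT8A (0.66), TBXT (0.65), NKD1 (0.63), the WNT-responsive factor gene SP5 (0.62) and the secreted WNT antagonist gene DKK4 (0.61). For MSGN1 they included WNT8A (0.66), TBX6 (0.64), TBXT (0.62) and EVX1 (0.60). NKD1, EVX1, DLL3, WNT8A and TBXT each stood near 2 of the 4 factors, and MESP2 shared DLL3 alone, with MESP1. The lists depend on the limit of 5 TPM. MSGN1 averaged 4.97 TPM and HES7 0.44 TPM, so they are not listed for TBX6, with which they had r of 0.64 and 0.62.

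The same measure was taken between the factors and neighbouring streak and mesoderm genes, as a description with no test of differences. With EOMES, r was 0.59 for MESP1, 0.64 for MESP2, 0.48 for TBX6 and 0.29 for MSGN1. With TBXT it was 0.55, 0.37, 0.65 and 0.62 in the same order, and with SNAI1 0.51, 0.27, 0.58 and 0.57. HES7 had 0.64, 0.33, 0.62 and 0.52. The order of MESP2 and MSGN1 differed between embryos: with TBXT, MESP2 had 0.86, 0.30 and 0.26 in the E20 embryo, E18 embryo 1 and E18 embryo 2, and MSGN1 0.76, 0.13 and 0.66. With SNAI1, MESP2 had 0.62, 0.016 and 0.19 in these embryos, and MSGN1 0.52, 0.11 and 0.71. COL3A1 had -0.29 with MESP1, -0.58 with MESP2, -0.26 with TBX6 and -0.10 with MSGN1. SNAI2 was below 0 with each factor, at -0.10, -0.19, -0.21 and -0.10. In E18 embryo 1, however, SNAI2 had 0.49, 0.11, 0.22 and 0.19, and COL3A1 0.073, -0.40, 0.11 and 0.055, in the same order. Both genes were below 0 with each factor in the E20 embryo and E18 embryo 2.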

How the data were processed

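The authors deposited TPM, 1 column per region, per the file header. fastp, HISAT2 and StringTie are named in the submitters' processing notes, without versions. Build, annotation, strand setting and handling of shared reads: not given in the sources used here. Columns were matched to labels by region name, with 0 identical pairs of columns. Of the housekeeping genes checked, HPRT1 was listed at 0 in 6 regions.

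The 15216 genes that reached 1 TPM in 10 or more regions were tested as log2(TPM + 1) with limma 3.58.1 (eBayes with trend) under R 4.3.3, and p-values were adjusted over all of them by Benjamini-Hochberg, with a threshold of 0.05. The stage fit used 3 embryo means (1 residual degree of freedom, moderated over genes). The section fit had embryo as a block, and the sector fit had section within embryo. Detection means a TPM of at least 1. The code was tested on simulated data. Correlations used numpy 2.4.6 and scipy 1.17.1, pictures matplotlib 3.10.9, and duplicateCorrelation (an alternative) statmod 1.5.0.

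The factors and lists were chosen with earlier results of these data known. Named genes are the 4 factors, the 5 nearest genes of each by Pearson's r (mean TPM of at least 5 and r above 0 in each embryo where the factor reached a TPM of 1 in at least 3 regions), the called list genes with the largest effects, and a set of 18 pathway neighbours and the tissue markers. No sequences were used here, and 1 gene that these rules name is not reported here.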

Additional observations from a re-analysis of the deposited data

How the results depend on the processing

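None of the 4 factors passed an adjusted p of 0.05 in the stage, section or sector fit under any alternative run with a test (7 or 8 for the stage, 11 or 12 for sections, 9 or 10 for sectors), limma throughout, and the lowest adjusted p was 0.0533, for the MESP2 stage difference after quantile normalization. TBX6 and MSGN1 have no value under the stricter filter on low values, which they did not pass. Leaving out an E18 embryo left no residual degree of freedom for the stage, with MSGN1 at -1.64 without embryo 1 and 0.061 without embryo 2. The sign of the MESP2 section slope, of the MESP2 and TBX6 sector slopes and of the MSGN1 stage difference was not stable over the alternatives.

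The number of genes called over the whole table depended more on the setting. For the stage, 1734 genes became 0 with medians over regions (2021 at an unadjusted p under 0.05) and 6 with E20 sections 6 and 7 only. For sections, 1628 became 27 with section means, 502 with detected genes as covariate and 6 with the E20 embryo split into separate blocks before section 6, and 9 without the E20 embryo to 2411 without E18 embryo 2. For sectors, 493 became 253 with a pseudocount of 0.1, 325 with sector numbers as given, and 0 without E18 embryo 2 (1116 at an unadjusted p under 0.05) to 1129 without E18 embryo 1. Rescaling columns to a common sum, added after seeing the data, kept each of these counts within 1.5 times.

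At a TPM of at least 5, MESP2 was in 22 regions, TBX6 in 17 and all 4 factors in 8, against 44, 35 and 14 at a TPM of at least 1. With a pseudocount of 0.1 r was 0.54 for MESP1 with MESP2 and 0.44 for MESP1 with TBX6. No paired analysis was possible because regions of different embryos share only section and sector numbers. The labels do not say at which end either numbering starts. TPM keep no counts, so a value near 0 cannot be told from one missed at low depth.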
